A study of Cricetiscus sungorus with 24 samples.

Results

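The machinery of autophagy was followed in the kidney of the Djungarian hamster (*Phodopus sungorus*) through 40 genes that were chosen by name. They comprised 11 genes of initiation, 5 of membrane supply, 10 conjugation enzymes and their partners, 5 genes of the Atg8 family, 7 receptors and 2 transcription factors. Each gene was represented by the mouse transcript that had the highest total count in the experiment, because reads of 1 gene were often counted on several of its transcripts. All 40 genes were listed among the 15842 genes of experiment 2, and 33 were listed among the 9681 genes of experiment 1. *Atg13*, *Pik3c3*, *Pik3r4*, *Atg14*, *Atg4c*, *Wipi1* and *Optn* were not analysed in experiment 1.

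Nanopore cDNA reads were counted in 24 kidney libraries, 1 from each adult hamster. Experiment 1 held males without injection: 4 in a long photoperiod (LP, 16 hours of light), 4 after 12 weeks in a short photoperiod (SP12wk, 8 hours of light) and 4 after 28 weeks in the same short photoperiod (SP28wk). Experiment 2 held females after 8 weeks in the short photoperiod: 6 given the vehicle, a mix of dimethyl sulfoxide and saline (SAL), and 6 given 18 µg of ovine prolactin in that vehicle (PRL), by intraperitoneal injection on 3 days. The comparisons addressed whether photoperiod, and prolactin given in a short photoperiod, go with changes in renal transcripts. Each experiment was sequenced on its own flow cell, so that sex, experiment and flow cell cannot be told apart, and no test was made across the experiments. No strain, deletion or transgene was named in the labels.

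Autophagy encloses cytoplasm, protein aggregates or whole organelles in a double membrane, the autophagosome, which then fuses with the lysosome. A kinase complex (Ulk1 or Ulk2 with Atg13, Rb1cc1 and Atg101) and a lipid kinase complex (Pik3c3, Pik3r4 and Becn1 with Atg14 or Uvrag) start the membrane, Atg2 and Atg9 proteins supply it with lipid, and a ubiquitin-like conjugation system attaches Atg8 proteins to it. Receptors tie cargo to the Atg8 proteins, and kidney tubules, which are rich in mitochondria, are a tissue in which the pathway is much studied.

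Library totals, counted as 1 transcript per gene, were 15693.5 to 57551.9 in experiment 1 and 174053.8 to 756485.9 in experiment 2. A single read was therefore worth 17.38 to 63.72 CPM (a gene's count scaled to a common library total) in experiment 1 and 1.32 to 5.75 CPM in experiment 2, and for a gene at 0 the data allow a level of as much as 3 counts, which is 52.13 to 191.16 CPM and 3.97 to 17.24 CPM. Summed CPM of 6 proximal tubule markers was 2060 to 4210 in the libraries of experiment 1 and 1070 to 2250 in those of experiment 2, and the remaining proximal tubule marker on the list, *Cubn*, was listed in neither. Genes of red blood cells summed to 14200 to 44100 CPM and 8910 to 19500 CPM. None of 4 markers of the adrenal gland was listed in experiment 1, and the 2 listed in experiment 2 reached 17.2 CPM in sum. Leukocyte markers were at 0 in every LP and SP12wk library and reached 114 CPM in SP28wk. Their part in the results below was not tested, and in RNA of whole tissue fewer cells of a type and less RNA per cell cannot be told apart.

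The reads of the pathway lay mostly on the Atg8 family, the small ubiquitin-like proteins that coat the autophagosome membrane. The 5 genes of the family held 58.0% of the 685 reads of all listed members in experiment 1 and 61.6% of 10530 reads in experiment 2. The receptors held 15.6% and 20.6%, the conjugation enzymes 14.6% and 9.14%, the initiation genes 8.32% and 6.22%, membrane supply 2.92% and 2.14%, and the transcription factors 0.584% and 0.332%. These are shares of reads and were not divided by transcript length, so that they do not rank the genes by level. The summed CPM of all members was 2200 ± 465 (SD, n = 12) in experiment 1 and 2340 ± 386 (SD, n = 12) in experiment 2.

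*Gabarap* (transcript NM_019749.4), a member of the Atg8 subfamily that acts late in autophagosome maturation, had 3101 reads in experiment 2. Its CPM was 444 at the lowest, 553 at the median and 760 at the highest in SAL, and 538, 767 and 931 in PRL. *Gabarapl2* (NM_026693.5), of the same subfamily, had 1461 reads, with 254 to 370 CPM in SAL (median 321) and 258 to 396 CPM in PRL (median 323). Both groups overlapped over most of their range for both genes. *Gabarapl1* (NM_020590.4) had 768 reads, and its CPM was 119 to 196 in SAL (median 179) and 128 to 224 in PRL (median 170). *Map1lc3b* (NM_026160.5), which encodes LC3B, the usual marker of autophagosomes, had 796 reads and lay between 134 and 224 CPM in SAL (median 170) and between 119 and 235 CPM in PRL (median 191). *Map1lc3a* (NM_025735.3), the LC3A gene, had 361 reads, 52.0 to 114 CPM in SAL (median 69.9) and 55.2 to 133 CPM in PRL (median 79.7). Of the 5 genes, *Gabarap* was higher in mean CPM than the others in each group, as read counts that were not divided by length.

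**Figure D1:**
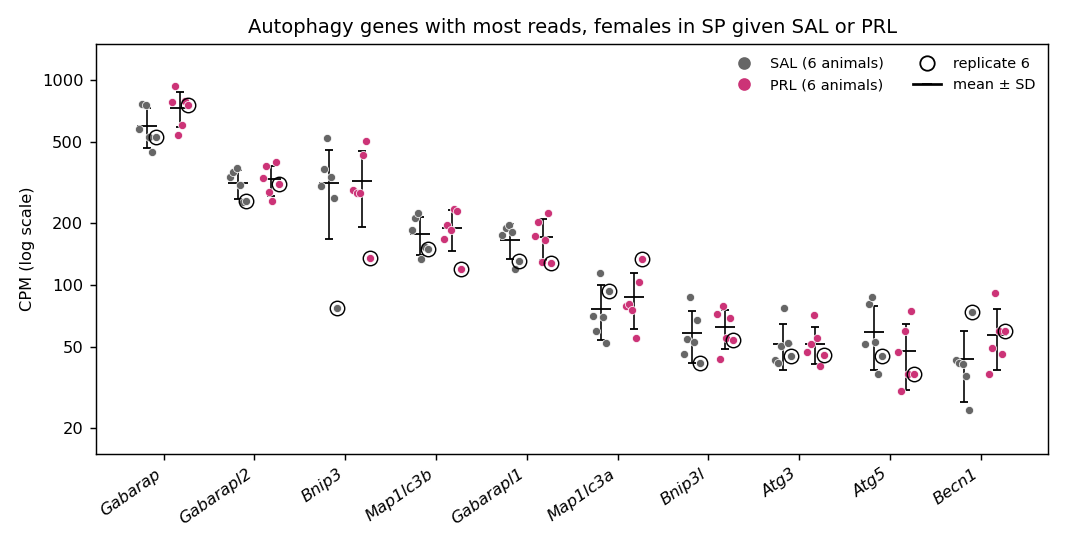
CPM on a log axis of the 10 members with most reads in experiment 2, 1 point for each of 6 SAL (grey) and 6 PRL (pink) libraries, with mean ± SD in black and a ring around replicate 6 of each group. The groups overlap for every gene, and *Bnip3* is lowest in both ringed libraries, at 76.8 and 136 CPM.

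The spread between libraries, each from another animal, was set beside the spread that counting reads alone gives. *Bnip3*, a receptor on the outer mitochondrial membrane that recruits Atg8 proteins in mitophagy, had 1346 reads in experiment 2 (NM_009760.4). Over the 12 libraries its coefficient of variation (CV, the SD divided by the mean) was 41.5%, whereas counting error alone would give 10.3%, a ratio of 4.03. For *Gabarap* the CV was 22.2% and counting alone would give 6.79%, a ratio of 3.27. Among the other members the ratio was at most 1.84, for *Sqstm1*. Counting error is smaller for genes with more reads, so the ratio does not rank the genes by how much they varied. *Sqstm1* (CV 48.3%, counting 26.2%), *Fundc1* (51.3% and 34.8%), *Atg4b* (70.4% and 50.1%) and *Uvrag* (108% and 69%) had larger CVs than *Gabarap* at fewer reads. The ratio was 1.49 to 1.58 for the other 4 genes of the Atg8 family, and 1.03 for *Bnip3l*, the paralog of *Bnip3*, at a CV of 24.1%. In experiment 1, with fewer reads, the largest ratio was 1.62, for *Gabarapl1*.

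**Figure D2:**
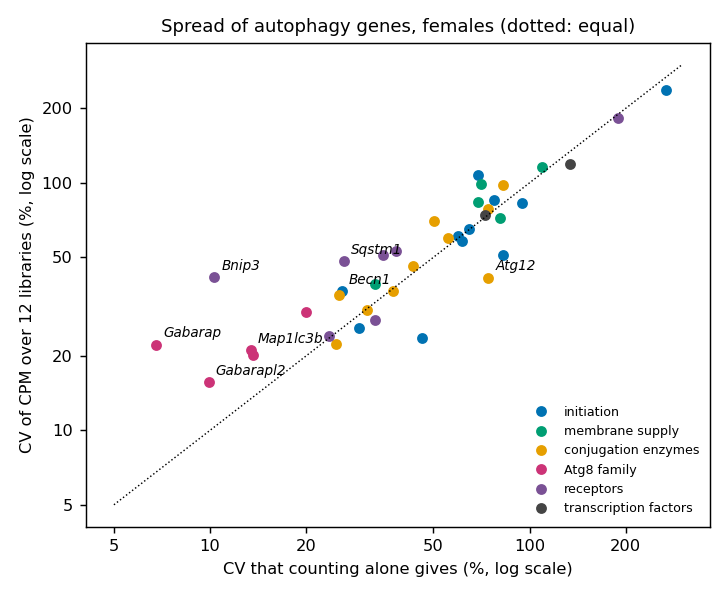
CV of CPM over the 12 libraries of experiment 2 (vertical, %, log axis) against the CV that counting error alone would give at each gene's read number (horizontal, %, log axis), 1 point for each of 40 members colored by role, with equality dotted. *Bnip3* and *Gabarap* stand farthest above the dotted line, at ratios of 4.03 and 3.27, where counting error is among the smallest.

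The low end of *Bnip3* was made by 1 library of each group. *Bnip3* was at 76.8 CPM in SAL replicate 6 and 136 CPM in PRL replicate 6, and the other 5 SAL libraries had 266, 305, 337, 369 and 521 CPM. The other 5 PRL libraries had 280, 281, 291, 432 and 506 CPM. In the same 2 libraries the summed CPM of 4 markers of the thick limb and distal tubule was 448 and 542, below the 639 to 1510 of the other 10 libraries. Proximal tubule markers were at 1070 and 1310 CPM there, beside 1150 to 2250 in the others, and 5 adipose markers were at 202 and 298 CPM, beside 39.5 to 242. The part of tissue composition in the *Bnip3* values was not tested. *Bnip3l* was at 41.6 and 53.9 CPM in the same libraries and at 43.6 to 86.8 CPM in the others.

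PRL against SAL gave no call among the members. In the quasi-likelihood test of edgeR, 0 of 38 members tested passed an adjusted p of 0.05, as did 0 of all 10701 genes tested (0% called), and DESeq2 also called 0 members. At an unadjusted p under 0.05, edgeR gave 3 members (2 higher and 1 lower in PRL, 7.89% of those tested) beside 520 of all genes (4.86%), and DESeq2 gave 2 members. The CPM ranges of PRL and SAL overlapped for all 40 members, and they did not overlap for 15 of all genes tested (0.14%). The median log2 fold change was 0.10 over the members and 0.02 over all genes. In that fit 23 members were higher and 15 lower in PRL, and with the size factors of DESeq2 20 were higher and 18 lower. The 5 adipose markers summed to 39.5 to 242 CPM in SAL (median 71.3) and 78.0 to 298 CPM in PRL (median 174), and their part in the member values was not tested.

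**Figure D3:**
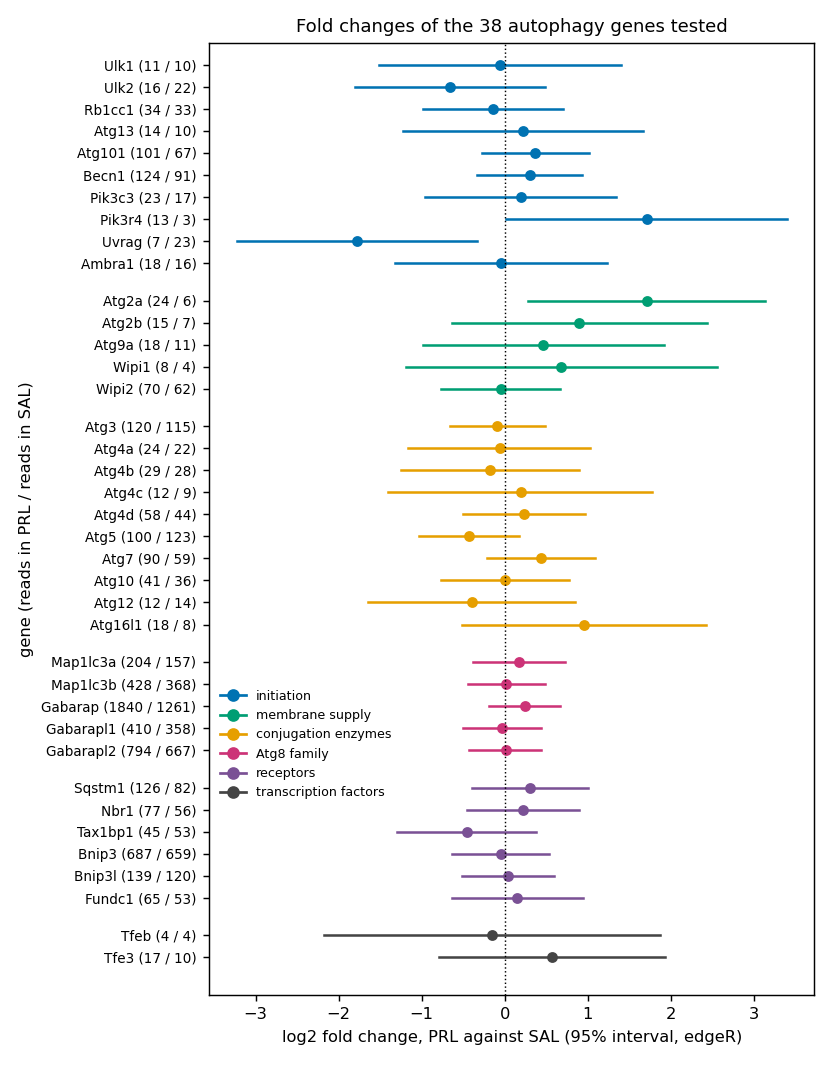
Log2 fold change of PRL against SAL with its 95% interval from edgeR for the 38 members tested, ordered and colored by role, with the reads of PRL and SAL beside each name. Intervals of *Uvrag*, *Pik3r4* and *Atg2a* do not reach 0, and the narrowest are those of *Gabarap*, *Gabarapl2*, *Map1lc3b* and *Gabarapl1*.

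Among the initiation genes, 10 of 11 were tested, 5 higher and 5 lower in PRL, and their summed CPM was 140 ± 37.2 in SAL and 151 ± 23.4 in PRL (SD, n = 6). *Atg14*, the subunit that directs the lipid kinase to the forming autophagosome, had 2 reads in all and was not tested. *Uvrag*, the alternative subunit, which directs the kinase to endosomes, had 23 reads in SAL and 7 in PRL. Its CPM was 2.70 to 27.4 in SAL (median 8.60) and 0 to 11.9 in PRL (median 1.5). In edgeR its log2 fold change was -1.78 ± 0.65 (SE) with an adjusted p of 0.637, and a two-sided exact permutation test of the mean CPM gave p = 0.0606.

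*Pik3r4*, which encodes the regulatory subunit of the same lipid kinase, had 3 reads in SAL and 13 in PRL, a ratio of CPM over pooled libraries of 3.95 with a 95% counting interval of 1.09 to 21.6. Its CPM was 0 to 3.20 in SAL, where 3 libraries had no read, and 2.84 to 9.20 in PRL, where each library had at least 1. The log2 fold change in edgeR was 1.71 ± 0.76 (SE) with an adjusted p of 0.981. The exact permutation test of *Pik3r4* gave p = 0.00649, without adjustment over the 40 members tested in this way. *Pik3c3*, the catalytic subunit that binds it, had 17 and 23 reads and a log2 fold change of 0.19 with a 95% interval of -0.96 to 1.34.

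*Becn1*, the scaffold of the lipid kinase complex, was among the 10 members with most reads. It lay between 24.5 and 73.6 CPM in SAL (median 41.4) and between 36.8 and 90.9 CPM in PRL (median 54.2), and the groups overlapped. Its log2 fold change was 0.30 with a 95% interval of -0.33 to 0.93. *Atg101*, which stabilizes Atg13 in the kinase complex, had 67 and 101 reads and a mean CPM of 31.6 ± 10.4 with vehicle and 41.5 ± 5.64 with prolactin (SD, n = 6), and the exact permutation test gave p = 0.0649. For the kinases *Ulk1* and *Ulk2* and their scaffold *Rb1cc1*, log2 fold changes were -0.06, -0.66 and -0.14, with adjusted p of 0.998 each in edgeR. For *Atg13* the log2 fold change was 0.22 and for *Ambra1*, a regulator of Becn1, it was -0.04.

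Of the membrane supply genes, 4 of 5 were higher in PRL, without a call. *Atg2a*, which transfers lipid from the endoplasmic reticulum to the growing membrane, had 6 reads in SAL and 24 in PRL. In SAL 3 libraries had no *Atg2a* read and the highest had 9.18 CPM, and in PRL the libraries lay between 3.95 and 17.2 CPM (median 11.5). Its log2 fold change in edgeR was 1.71 ± 0.64 (SE) with an adjusted p of 0.669. In the exact permutation test p was 0.0130, likewise without adjustment over the 40 members. The paralog *Atg2b* had 7 reads in SAL and 15 in PRL, with a log2 fold change of 0.90 and a 95% interval of -0.63 to 2.44. *Atg9a*, the lipid scramblase of the seed vesicles, had a log2 fold change of 0.46, and the phosphoinositide-binding *Wipi1* and *Wipi2* had 0.68 and -0.05.

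The conjugation genes were as often higher as lower in PRL (5 and 5 of 10), with a summed CPM of 216 ± 38.9 in SAL and 226 ± 43.4 in PRL (SD, n = 6). *Atg5*, which forms the conjugate with Atg12, had 123 reads in SAL and 100 in PRL. It lay between 36.7 and 86.8 CPM in SAL (median 52.0) and between 30.4 and 74.7 CPM in PRL (median 41.9), with a log2 fold change of -0.43 and a 95% interval of -1.03 to 0.17. *Atg12* itself, which the study plotted and chose on these samples, had 14 reads in SAL and 12 in PRL. The study took it from a group of coexpressed genes negatively associated with the diameter of convoluted tubules, and described it as downregulated when tubules enlarged. An association with diameter is another measure than the comparison of PRL and SAL made here. *Atg12* CPM was 3.20 to 10.4 in SAL (median 7.27) and 3.35 to 6.61 in PRL (median 5.14), and every library had at least 1 read. Its log2 fold change was -0.40 with a 95% interval of -1.65 to 0.85, its adjusted p in edgeR was 0.998, and the exact permutation test gave p = 0.193.

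*Atg3*, the E2-like enzyme that joins Atg8 proteins to lipid, had nearly the same mean CPM in both groups, 51.5 ± 13.2 in SAL and 51.7 ± 10.8 in PRL (SD, n = 6), and a log2 fold change of -0.09 with a 95% interval of -0.66 to 0.49. Its CPM was 41.6 to 77.1 in SAL (median 47.5) and 40.2 to 71.2 in PRL (median 49.2). *Atg7*, the E1-like enzyme that activates both Atg8 and Atg12, had 59 and 90 reads, at 18.2 to 38.4 CPM in SAL (median 28.2) and 31.2 to 55.2 CPM in PRL (median 39.4). The exact permutation test of *Atg7* gave p = 0.0368, and edgeR gave a log2 fold change of 0.44 with a 95% interval of -0.21 to 1.09 and an adjusted p of 0.998. Such tests were made for 40 members in this comparison, the smallest p that 6 against 6 libraries can give being 0.00216, and no adjusted p over the members was computed. *Atg16l1*, which anchors the Atg12 and Atg5 conjugate to the membrane, had 8 and 18 reads and a log2 fold change of 0.95 (-0.52 to 2.43). *Atg10*, the E2-like enzyme of Atg12, and the proteases *Atg4a*, *Atg4b*, *Atg4c* and *Atg4d*, which trim Atg8 proteins, had log2 fold changes between -0.18 and 0.23.

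The Atg8 family had a summed CPM of 1330 ± 247 in SAL and 1510 ± 230 in PRL (SD, n = 6), with ranges of 1020 to 1660 and 1210 to 1790. Scaled with TMM factors, the sums were 1360 ± 211 and 1470 ± 250. Log2 fold changes were 0.24 for *Gabarap* (95% interval -0.19 to 0.67), 0.17 for *Map1lc3a* (-0.38 to 0.72), 0.02 for *Map1lc3b* (-0.44 to 0.48), 0.01 for *Gabarapl2* (-0.43 to 0.44) and -0.03 for *Gabarapl1* (-0.50 to 0.44). The intervals of *Gabarap*, *Gabarapl2*, *Map1lc3b* and *Gabarapl1* were the narrowest of the 38 members tested, and none of the 5 left out 0. The mean CPM of *Gabarap* was 733 ± 142 with prolactin and 598 ± 130 with vehicle (SD, n = 6), and the exact permutation test gave p = 0.0952.

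The summed CPM of the receptors was 486 ± 170 in SAL and 512 ± 159 in PRL (SD, n = 6), with replicate 6 of each group lowest at 214 and 264 CPM and the other libraries between 438 and 753 CPM. *Bnip3* was at 313 ± 145 CPM in SAL and 321 ± 130 CPM in PRL. Without replicate 6 of either group it was at 360 ± 97.7 and 358 ± 105 CPM (SD, n = 5). *Bnip3l* had a log2 fold change of 0.04 with a 95% interval of -0.51 to 0.59, and *Fundc1*, another mitophagy receptor, had 0.15 (-0.64 to 0.94). Among receptors for ubiquitin-tagged cargo, *Sqstm1*, the p62 gene, was at 15.3 to 54.8 CPM in SAL (median 40.4) and 25.5 to 85.9 CPM in PRL (median 36.5), with a log2 fold change of 0.30 (-0.40 to 1.00). *Nbr1* had 0.22 (-0.46 to 0.90) and *Tax1bp1* had -0.46 (-1.30 to 0.38). *Optn* had 4 reads, all in PRL, in 3 of 12 libraries, and was not tested.

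*Tfeb* and *Tfe3*, transcription factors that switch on lysosomal and autophagy genes, were sparse. *Tfeb* had 4 reads in each group and *Tfe3* had 10 in SAL and 17 in PRL, and their log2 fold changes were -0.15 and 0.57 with 95% intervals of -2.18 to 1.87 and -0.79 to 1.93.

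**Figure D4:**
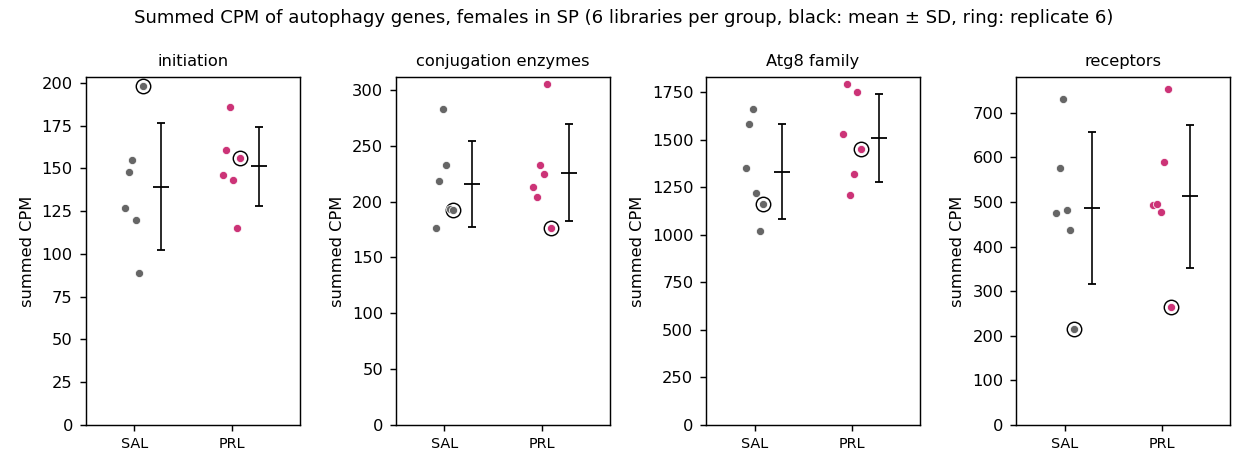
Summed CPM of the initiation genes, conjugation enzymes, Atg8 family and receptors in experiment 2, 1 point per library for 6 SAL (grey) and 6 PRL (pink) libraries, with mean ± SD in black and a ring around replicate 6. The groups overlap in each panel, and the receptor sum is lowest in both ringed libraries, at 214 and 264 CPM.

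In experiment 1, the initiation genes summed by library total to a mean of 352 ± 186 CPM in LP and 103 ± 89.8 CPM after 12 weeks in SP (SD, n = 4). With TMM factors these means were 294 ± 99.9 and 100 ± 83.1. The Atg8 family summed to 1330 ± 382 and 1320 ± 363 CPM by library total, and to 1160 ± 233 and 1320 ± 366 with TMM factors. No member passed the test in any comparison. The adjusted p of edgeR was under 0.05 for 0 of 22 members tested in SP12wk against LP, beside 1 of all 5091 genes tested (0.0196%). It was under 0.05 for 0 members in SP28wk against SP12wk, beside 7 genes (0.137%), and for 0 members in SP28wk against LP, beside 11 genes (0.216%). DESeq2 called 0 members in each. At an unadjusted p under 0.05, edgeR gave 2 members in SP12wk against LP (9.09% of those tested, both lower in SP12wk) beside 7.25% of all genes, and 0 members in SP28wk against SP12wk and in SP28wk against LP, beside 6.13% and 8.49% of all genes. DESeq2 gave 0 members at that p in the 3 comparisons. The CPM ranges of the groups overlapped for all 33 members in each comparison, and they did not overlap for 2.65%, 3.34% and 3.28% of all genes tested.

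Reads of the initiation genes numbered 28 in the LP libraries, 9 in the SP12wk libraries and 20 in the SP28wk libraries. Their summed CPM was 188, 616, 333 and 272 in the LP libraries, 163, 191, 0 and 56.5 in SP12wk, and 277, 125, 85.7 and 122 in SP28wk. The highest SP12wk library was thus just above the lowest LP library. LP replicates 2 and 3, at 616 and 333 CPM, had 3.30 and 2.89 times as many counts over all transcripts as over 1 transcript per gene. That ratio was 2.27 and 2.32 in LP replicates 1 and 4, 2.20 to 2.37 in SP12wk and 2.15 to 2.45 in SP28wk. Its part in the LP values was not tested. With TMM factors, LP lay at 198 to 434 and SP12wk at 0 to 169, so that the groups no longer overlapped. Beside this gap between 169 and 198, a single read was worth 28.27 to 63.72 CPM in SP12wk by library total. For single genes by library total, 2.65% of all genes tested did not overlap in this comparison, and no such share was computed for sums. No p is given for sums over the members, because the list was chosen with results known.

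Of the 7 initiation genes listed in experiment 1, 6 were tested and none was called. Exact permutation tests of the mean CPM were made for 33 members in each photoperiod comparison, and no adjusted p over the members was computed. *Ulk2*, a kinase of the initiating complex, had 4 reads in LP (94.0, 56, 55.5 and 0 CPM), none in SP12wk and 3 in SP28wk (39.5, 0, 28.6 and 17.4 CPM). Set against a floor of 3 counts over the 4 SP12wk libraries, its LP level was 1.54-fold higher. That figure takes the 4 LP reads as exact, so it is not a lower bound on the difference. In edgeR the 95% interval of its log2 fold change, -6.76 to 0.16, included 0, and its adjusted p was 0.603. The exact permutation test gave p = 0.143. For SP28wk against SP12wk its adjusted p was 0.908, and no fold is given because both groups were at or under the floor. *Becn1* was at 47.0, 112, 111 and 38.8 CPM in LP, had reads in 1 of 4 SP12wk libraries (56.5 CPM), and was at 119, 41.5, 0 and 52.1 CPM in SP28wk. Its 7 reads in SP28wk and 2 in SP12wk gave a ratio of 2.35 with a 95% counting interval of 0.448 to 23.2, and the adjusted p in edgeR was 0.981.

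*Uvrag* was at 0, 168, 55.5 and 77.7 CPM in LP, at 40.9 CPM in 1 SP12wk library and 0 in the others, and at 0, 41.5, 0 and 17.4 CPM in SP28wk. The 2 reads of SP28wk against 6 of LP gave a ratio of 0.195 with a 95% counting interval of 0.0192 to 1.09, and the adjusted p in edgeR was 0.749. *Ambra1* had reads in each LP library (47.0, 112, 55.5 and 38.8 CPM) and in 1 of 4 SP12wk libraries (63.7 CPM), a ratio of 0.174 with an interval of 0.00367 to 1.55. *Rb1cc1* had 5 LP reads and 3 reads in each SP group. *Ulk1* had 3 reads in 3 of 12 libraries, below the filter of 4 libraries, and *Atg101* had 4 reads in 4 libraries, just inside it.

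Reads of the conjugation genes numbered 38, 25 and 37 in the groups in the same order. They summed to 517, 392, 555 and 388 CPM in LP and to 286, 127, 301 and 283 CPM in SP12wk, so that these groups did not overlap. In SP28wk the sums were 395, 332, 200 and 209 CPM, overlapping both. With TMM factors LP and SP12wk overlapped, at 276 to 546 and 112 to 318. Here too, 2.65% of all single genes tested did not overlap between LP and SP12wk by library total, and no such share was computed for sums.

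**Figure D5:**
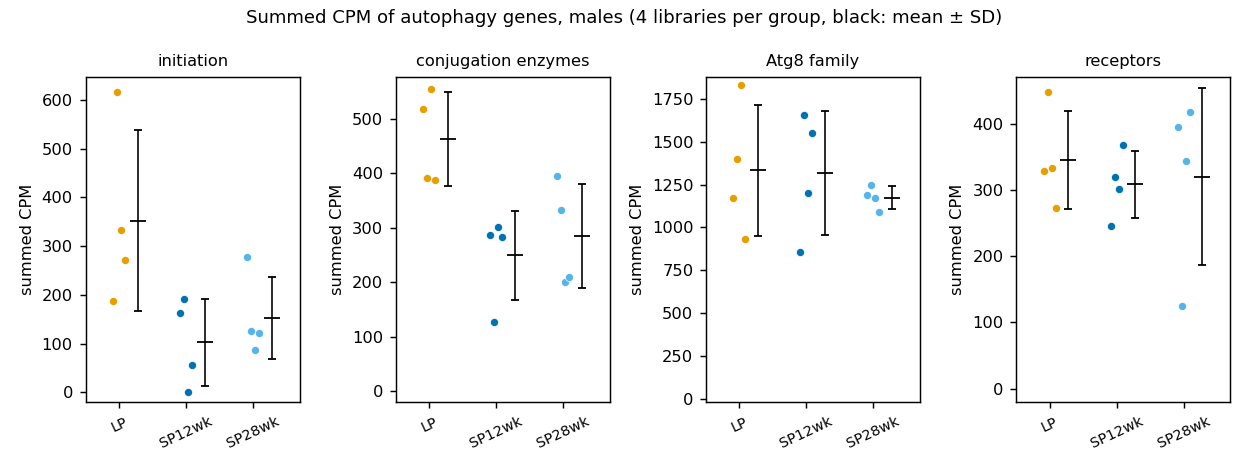
Summed CPM (library total as denominator) of the initiation genes, conjugation enzymes, Atg8 family and receptors in experiment 1, 1 point per library for 4 LP, 4 SP12wk and 4 SP28wk libraries, with mean ± SD in black beside the points. For conjugation enzymes the LP libraries, at 388 to 555 CPM, lie above the SP12wk libraries, at 127 to 301 CPM, but with TMM factors these groups overlapped. How often sums of other genes do not overlap was not computed.

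Of the conjugation enzymes, *Atg3* had 46 reads and a read in every library. It was at 188, 56, 166 and 233 CPM in LP, 163, 63.7, 100 and 141 CPM in SP12wk, and 79.0, 125, 143 and 174 CPM in SP28wk, and the log2 fold change of SP12wk against LP was -0.24 with a 95% interval of -1.82 to 1.35. *Atg5* was at 47.0, 168, 166 and 77.7 CPM in LP, 40.9, 0, 100 and 28.3 CPM in SP12wk, and 119, 0, 28.6 and 0 CPM in SP28wk. The log2 fold change of *Atg5* in SP28wk against LP was -1.39 ± 0.95 (SE) with an adjusted p of 0.772 in edgeR. *Atg4b*, a protease of Atg8 proteins, had 3 LP reads, no SP12wk read and 1 SP28wk read, which gives no fold, and its adjusted p in SP12wk against LP was 0.639 in edgeR. *Atg4d*, of the same protease family, was at 235, 56, 0 and 0 CPM in LP, 40.9, 63.7, 50.2 and 84.8 CPM in SP12wk and 119, 41.5, 0 and 0 CPM in SP28wk, and its log2 fold change in SP28wk against SP12wk was -0.82 with a 95% interval of -3.13 to 1.49. *Atg16l1* had 3 reads, all in LP, and was below the filter. *Atg7* had 11 reads, and *Atg4a*, *Atg10* and *Atg12* had 1 read each.

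The Atg8 family, which had most reads, had sums that overlapped between LP and SP12wk. Its summed CPM was 1170, 1400, 1830 and 932 in LP, 858, 1660, 1200 and 1550 in SP12wk, and 1190, 1250, 1170 and 1090 in SP28wk. The difference in mean sum between SP12wk and LP was -15.8 CPM by library total and 166 CPM with TMM factors, and that between SP28wk and LP was -160 CPM and 168 CPM, so that the sign of both turned with the scaling. By library total, leaving out 1 library moved the first to between -150 CPM (without LP replicate 4) and 149 CPM (without LP replicate 3), and the second to between -294 CPM (without LP replicate 4) and 5.3 CPM (without LP replicate 3). *Gabarap* was at 470, 112, 444 and 311 CPM in LP, 245, 446, 351 and 424 CPM in SP12wk and 277, 581, 314 and 417 CPM in SP28wk. *Gabarapl2* was at 141, 392, 388 and 388 CPM in LP, 163, 319, 401 and 311 CPM in SP12wk and 435, 291, 457 and 261 CPM in SP28wk. Their log2 fold changes in the 3 comparisons lay between 0.07 and 0.56, without a call.

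*Gabarapl1* was at 329, 336, 610 and 38.8 CPM in LP, 245, 510, 251 and 509 CPM in SP12wk, and 277, 41.5, 85.7 and 209 CPM in SP28wk. Of the SP28wk libraries, 3 lay below every SP12wk library and 1, at 277 CPM, lay inside their range. The log2 fold change of SP28wk against SP12wk was -1.08 ± 0.55 (SE), the adjusted p in edgeR was 0.810, and the exact permutation test gave p = 0.0857, where 4 against 4 libraries cannot go below 0.0286. *Map1lc3b* was at 47.0, 504, 333 and 194 CPM in LP, 81.7, 191, 151 and 198 CPM in SP12wk and 119, 166, 229 and 156 CPM in SP28wk. *Map1lc3a* was at 188, 56, 55.5 and 0 CPM in LP, 123, 191, 50.2 and 113 CPM in SP12wk and 79.0, 166, 85.7 and 52.1 CPM in SP28wk, and its log2 fold change of SP12wk against LP was 0.81 with a 95% interval of -1.05 to 2.68.

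The receptors summed to 329, 448, 333 and 272 CPM in LP, 245, 319, 301 and 368 CPM in SP12wk, and 395, 125, 343 and 417 CPM in SP28wk, and all groups overlapped. *Nbr1*, a receptor for ubiquitin-tagged cargo, was at 47.0, 112, 0 and 0 CPM in LP, 163, 63.7, 50.2 and 141 CPM in SP12wk and 158, 0, 0 and 139 CPM in SP28wk. Its 11 reads in SP12wk against 3 in LP gave a ratio of 3.18 with a 95% counting interval of 0.841 to 17.8 and an adjusted p of 0.657 in edgeR, and its 12 reads in SP28wk gave a ratio to LP of 2.34 (0.631 to 12.9). All 15 transcripts of *Nbr1* carried the same counts in every library of experiment 1. When counts were added over the transcripts of each gene, the difference in receptor sum between SP12wk and LP was 306 CPM in place of -37.3 CPM.

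*Tax1bp1* was at 141, 168, 111 and 117 CPM in LP and at 0, 0, 50.2 and 113 CPM in SP12wk, so that 1 SP12wk library reached the LP range. Its log2 fold change was -1.10 with a 95% interval of -3.06 to 0.85, and the exact permutation test gave p = 0.0571. *Bnip3* was at 0, 0, 55.5 and 117 CPM in LP, 40.9, 63.7, 151 and 56.5 CPM in SP12wk and 39.5, 0, 229 and 86.9 CPM in SP28wk. The log2 fold change of *Bnip3* in SP28wk against LP was 1.29 ± 0.87 (SE) with an adjusted p of 0.772 in edgeR. *Bnip3l* had 20 reads, *Fundc1* had 8, and *Sqstm1*, *Tfeb* and *Tfe3* had 2 each. Of the membrane supply genes, *Wipi2* had 13 reads, and *Atg2a*, *Atg2b* and *Atg9a* had 2, 2 and 3.

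Over all 22 members tested, 9 were higher and 13 lower in SP12wk than in LP, with a median log2 fold change of -0.35 beside 0.00 over all genes, or -0.14 when the genes without a read in SP12wk were set to their bound. In SP28wk against SP12wk 16 were higher and 6 lower (median 0.36, or 0.28 at the bound, beside 0.15 over all genes), and in SP28wk against LP 9 were higher and 13 lower (median -0.18 beside 0.18). These comparisons share the SP12wk or the LP libraries, so that their values are not independent of each other. The choice of scaling bears on each of these values, since log2 ratios by library total differ from those by TMM by -0.36 for SP28wk against LP, -0.19 for SP12wk against LP and -0.17 for SP28wk against SP12wk.

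Set side by side without a test, the experiments differed in the receptors that held the reads. *Sqstm1* had 2 reads of 685 member reads in experiment 1 and 208 of 10530 in experiment 2, at 6.24 and 46.3 CPM over pooled libraries, for a different transcript in each experiment. *Bnip3* had 25 and 1346 reads, at 78.0 and 299 CPM. *Gabarap* was at 372 and 690 CPM, whereas *Gabarapl2* was at 325 CPM in both and *Map1lc3b* at 187 and 177 CPM. *Atg3* was at 144 and 52.3 CPM, again for different transcripts, while the transcripts of *Bnip3* and of these Atg8 genes were the same in both.

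Genes around the core pathway were read from the same fits. Of 55 upstream kinases and regulators, further core genes, fusion genes, further receptors and lysosomal genes, 28 were tested in experiment 1 and 48 in experiment 2, and 0 were called in each comparison. At an unadjusted p under 0.05 in edgeR, 1 was higher and 2 lower in PRL than in SAL, beside 4.86% of all genes tested. *Calcoco1*, a receptor for the endoplasmic reticulum and Golgi, had 4 reads in SAL and 16 in PRL, with an adjusted p of 0.998 in edgeR.

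In experiment 1 the corresponding numbers were 0 higher and 1 lower in SP12wk against LP, 0 and 2 in SP28wk against SP12wk, and 3 and 1 in SP28wk against LP, beside 7.25%, 6.13% and 8.49% of all genes tested. *Tex264*, a receptor for the endoplasmic reticulum, had the smallest edgeR p among those lower in SP28wk, of 28 related genes tested. Its mean CPM was 25.7 ± 17.7 (SD, n = 4) after 28 weeks in SP. It was 165 ± 30.0 after 12 weeks and 171 ± 123 in LP. *Tex264* had 4 reads in SP28wk, 16 in SP12wk and 14 in LP. The SP28wk libraries lay below all libraries of both other groups. Against LP this rested on a single read on each side, worth 39.5 CPM in SP28wk replicate 1 and 47.0 CPM in LP replicate 1. The order of those libraries was therefore set by their totals. Over all genes tested, the groups did not overlap for 3.28% against LP and 3.34% against SP12wk. The adjusted p of *Tex264* in edgeR was 0.50 against LP and 0.616 against SP12wk. The exact permutation test gave p = 0.0286 for both, the value that any gene gets here when the groups do not overlap. *Retreg1*, another receptor for the endoplasmic reticulum, had 6 reads in LP and none in SP12wk, with an adjusted p of 0.603 in edgeR. *Ctsl*, a lysosomal protease, had 32 reads after 28 weeks in SP, 10 after 12 weeks and 6 in LP, with 1 SP28wk library at 0, and the adjusted p was 0.389 against LP and 0.823 against SP12wk in edgeR. *Lamtor1*, a part of the lysosomal anchor of mTORC1, had 1 read in SP12wk and none in LP.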

How the data were processed

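Kidney RNA of 12 male and 12 female hamsters was sequenced as nanopore cDNA, on 1 flow cell per experiment. The authors basecalled with Guppy 4.2.1, removed adapters with Porechop 0.2.4, selected reads with Filtlong 0.2.0 and used Minimap2 2.17 for alignment, with the mouse genome as reference. The submitters' processing notes also name Salmon, without its role. What the authors deposited are estimated counts without normalization, 1 value for each mouse RefSeq transcript and library, so hamster reads carry mouse transcript names and transcripts unlike the mouse may be missed. The methods name a direct cDNA kit and the labels a PCR cDNA kit under the same catalogue numbers. All 12 value columns of each table were used.

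The transcript with the highest total stood for each gene, counts were rounded, and CPM was the count over the library total. Each experiment was fitted alone in edgeR 4.0.16 (R 4.3.3) with the quasi-likelihood test, TMM factors and no covariate, keeping a gene if 4 of 12 libraries (experiment 1) or 6 of 12 (experiment 2) had a count, with Benjamini-Hochberg adjustment over all genes tested and a threshold of 0.05. Intervals of 95% used the t quantile at the residual degrees of freedom. Two-sided exact permutation tests compared the mean CPM of single members. Counting intervals (exact binomial) and floors of 3 counts cover counting error only. The fit was tested on simulated data with changes placed only in genes that had more reads than most members of experiment 1. That test therefore does not bear on sparse members. Libraries within a group differed by 1.49 to 7.30 in chi-square per degree of freedom, more than sampling noise, so none was counted as a copy.

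Alternatives were counts added over transcripts, no or a stricter filter (8 of 12 or 12 of 12 libraries), size factors of DESeq2, DESeq2 1.42.0, a replicate block and each library left out. The members, lists and tests were chosen with earlier results of these data known. Values were given for the 10 members with most reads in experiment 2 and the 6 in experiment 1, the 2 members of lowest edgeR p per direction and comparison, and *Atg12*. Other members are described by counts and folds, except that *Ambra1*, *Tax1bp1*, *Atg7*, *Atg101* and *Sqstm1* were given CPM values or exact tests after their values were seen.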

Additional observations from a re-analysis of the deposited data

Results flagged for a closer look

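In 81 sets of 4 to 6 libraries of 1 group, 4 held a library that stood far from the others by Dixon's criterion. Chance alone flags about 1 in 20 such sets where values are continuous, which counts of a few reads are not. *Gabarapl2* was at 141 CPM in LP replicate 1 and at 388 to 392 CPM in the other 3 LP libraries. *Becn1* was at 56.5 CPM (2 reads) in SP12wk replicate 4 and at 0 in the other 3 SP12wk libraries, a pattern that the criterion flags at any level. The conjugation enzymes summed to 127 CPM in SP12wk replicate 2 and to 283 to 301 CPM in the other 3. *Atg3* was at 77.1 CPM in SAL replicate 4 and at 41.6 to 52.0 CPM in the other 5 SAL libraries.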

How the results depend on the processing

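No member was called under any alternative. The log2 fold changes of members named by their p kept their sign under each alternative in which they were fitted, those of *Ulk2* and *Atg4b* not being followed because a group had no read, and that of *Atg12* was not followed. Counts of called genes over the whole table were less stable. With counts added over transcripts, 0 genes were called in each photoperiod comparison and 1 in PRL against SAL, and 1 member had an unadjusted p under 0.05 in SP28wk against LP. That setting gave differences in receptor sum of 306 CPM for SP12wk against LP, -154 CPM for SP28wk against SP12wk and 152 CPM for SP28wk against LP (from -37.3, 11.8 and -25.5 CPM), and in conjugation sum of 164 CPM for SP28wk against SP12wk and -82.9 CPM for SP28wk against LP (from 34.6 and -179 CPM). It also moved *Uvrag* in SP28wk against LP from -1.70 to -3.63 and *Atg4d* in SP28wk against SP12wk from -0.82 to -0.34 on the log2 scale. TMM factors gave 168 CPM in place of -160 CPM for the Atg8 sum of SP28wk against LP. Without the filter, 0 genes were called in SP12wk against LP and 92 in PRL against SAL, and 1 member was under 0.05 unadjusted in SP12wk against LP. The stricter filter gave 0, 2 and 5 genes in SP12wk against LP, SP28wk against SP12wk and SP28wk against LP, and 0, 1 and 0 members at an unadjusted p under 0.05 in SP12wk against LP, SP28wk against SP12wk and PRL against SAL. Size factors of DESeq2 gave 0 genes in SP12wk against LP, and DESeq2 gave 0, 2 and 3 genes in the photoperiod comparisons and 0 members unadjusted in SP12wk against LP. The cause of these changes was not tested.

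With a replicate block, 0 genes were called in SP12wk against LP and 49 in PRL against SAL, and 0 members in SP12wk against LP and 1 in SP28wk against SP12wk had an unadjusted p under 0.05. The labels give the same replicate numbers to each group without saying what a number shares, and same-numbered libraries did not deviate together. Correlations were -0.051 to 0.082 in 12 pairs of experiment 1 and -0.047 to 0.086 in 6 pairs of experiment 2, with the same number as best match in 3 and 2 pairs. The numbers were read as names only.

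Leaving out each library in turn gave 0 to 8 called genes in SP12wk against LP (8 without SP12wk replicate 1, 7 without LP replicate 4, 4 without SP12wk replicate 2, 0 without any other), 2 to 8 in SP28wk against SP12wk (2 without SP12wk replicate 4, SP28wk replicate 3 or SP28wk replicate 4, and 4 without SP12wk replicate 2), 9 to 55 in SP28wk against LP (55 without LP replicate 4, 30 without SP28wk replicate 1) and 0 to 43 in PRL against SAL (43 without PRL replicate 4, 27 without SAL replicate 6, 26 without PRL replicate 3, 1 without SAL replicate 5). Single libraries moved the size of uncalled log2 fold changes. *Becn1* in SP28wk against SP12wk went from 1.27 to 3.64 without SP12wk replicate 4 and 0.78 without SP28wk replicate 1, and *Atg4d* from -0.82 to between -2.17 (without SP28wk replicate 1) and -0.27 (without SP28wk replicate 4). In SP12wk against LP, *Map1lc3a* went from 0.81 to 1.91 without LP replicate 1 and 0.40 without LP replicate 4, and *Nbr1* from 1.71 to 2.66 without LP replicate 2. In SP28wk against LP, *Bnip3* went from 1.29 to 2.58 without LP replicate 4 and 0.46 without SP28wk replicate 3, *Nbr1* from 1.42 to 2.32 without LP replicate 2 and 0.61 without SP28wk replicate 4, and *Atg5* from -1.39 to -2.74 without SP28wk replicate 1 and -0.84 without SP28wk replicate 4. Members at an unadjusted p under 0.05 numbered 1 to 2, 0 to 1, 0 to 1 and 2 to 4. Leaving out replicate 6 of both SAL and PRL, chosen after seeing the data, gave 15 genes and no called member. In experiment 1, most members had under 20 reads, and differences of a few fold lay within their intervals.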
